A study of Mus musculus with 15 samples.

Results

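The interferon regulatory factor genes of bone marrow-derived macrophages (BMDMs) were followed across cytokine treatments. The entries of the deposited count matrix whose Ensembl identifier maps to Irf1, Irf2, Irf3, Irf4, Irf5, Irf7, Irf8 or Irf9 were taken, which gave 8 genes of 53465 in the matrix. All 8 passed the filter on low counts that left 13938 genes for testing.

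The BMDMs were mouse bone marrow cells cultured for 7 days in 20 ng/ml of M-CSF, the growth factor that drives macrophage differentiation. They were then left without added cytokine (control) or treated for 24 h with IL-4 (10 ng/ml), IL-4 and IL-6 (10 and 40 ng/ml; IL-4+IL-6), IL-13 (40 ng/ml), or IL-6 and IL-13 (40 ng/ml each; IL-6+IL-13). The study's methods describe marrow from mice aged 8 to 12 weeks, but do not say separately which mice gave the sequenced cells. RNA of 3 libraries per group was sequenced (15 libraries), no group received IL-6 alone, and all cells of a culture were harvested together. The comparisons ask how IL-4 and IL-13 change each factor and how the addition of IL-6 changes it further.

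Interferon regulatory factors (IRFs) are transcription factors whose N-terminal DNA-binding domain reads GAAA repeats, as in the interferon-stimulated response element (ISRE). Irf3, Irf5 and Irf7 are switched on behind nucleic acid sensors and Toll-like receptors, Irf9 is part of the complex ISGF3 that answers type I interferon, Irf1 activates and Irf2 mostly restrains interferon genes, and Irf8 and Irf4 steer the fates of myeloid and lymphoid cells. In macrophages Irf5 is known for inflammatory cytokine programs and Irf4 for alternative (M2) activation, while IL-4 and IL-13 signal through STAT6 and IL-6 through STAT3.

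The stretches before the start sites of 5 of the genes are shown, because they hold or lack the letters that STAT proteins and IRFs read. The windows came from RefSeq (build GRCm38.p6), which holds 11 windows for the 8 genes, each reaching from 250 bases before to 50 bases after a start. Both strands were searched for the ISRE core (GAAA and GAAA with 2 bases between), the STAT (GAS) motif (TTC and GAA with 3 between), the STAT6-type motif (TTC and GAA with 4 between) and the ETS-IRF composite motif (GGAA and GAAA with 2 between). The printed stretches are the 250 bases before the start, 5′ to 3′, with matches in capitals.
Irf8, chr8:120736108-120736357, plus strand: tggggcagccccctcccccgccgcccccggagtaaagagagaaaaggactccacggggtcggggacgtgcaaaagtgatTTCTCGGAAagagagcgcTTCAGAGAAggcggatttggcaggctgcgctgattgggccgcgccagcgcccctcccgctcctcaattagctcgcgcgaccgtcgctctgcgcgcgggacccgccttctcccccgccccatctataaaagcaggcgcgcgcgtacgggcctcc
Irf1, chr11:53769764-53770013, plus strand: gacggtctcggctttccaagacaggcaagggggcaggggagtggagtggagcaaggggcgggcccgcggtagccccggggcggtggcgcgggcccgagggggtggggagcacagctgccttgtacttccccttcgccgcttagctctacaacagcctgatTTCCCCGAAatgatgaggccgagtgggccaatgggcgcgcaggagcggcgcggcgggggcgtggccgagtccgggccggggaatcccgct
Irf2, chr8:46739495-46739744, plus strand: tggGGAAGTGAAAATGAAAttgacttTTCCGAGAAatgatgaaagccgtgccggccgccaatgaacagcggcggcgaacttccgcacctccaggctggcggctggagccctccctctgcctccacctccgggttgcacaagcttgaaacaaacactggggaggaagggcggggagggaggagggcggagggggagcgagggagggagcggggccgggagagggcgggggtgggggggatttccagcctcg
Irf4, chr13:30748983-30749232, plus strand: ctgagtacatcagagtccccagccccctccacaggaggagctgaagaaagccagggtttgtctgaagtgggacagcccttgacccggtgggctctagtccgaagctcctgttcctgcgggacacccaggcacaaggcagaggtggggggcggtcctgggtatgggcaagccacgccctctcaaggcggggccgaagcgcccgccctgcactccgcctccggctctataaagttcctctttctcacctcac
Irf5, chr6:29526375-29526624, plus strand: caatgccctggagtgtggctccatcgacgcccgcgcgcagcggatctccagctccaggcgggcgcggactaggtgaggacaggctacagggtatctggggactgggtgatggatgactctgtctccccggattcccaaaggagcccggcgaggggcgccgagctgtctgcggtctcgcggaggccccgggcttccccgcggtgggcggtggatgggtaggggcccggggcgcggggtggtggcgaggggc

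Irf8 held a pair of GAS matches, beginning at positions -171 and -153 from its start. Irf1 held one at -90, and Irf2 one at -224. The capitals furthest from the start in Irf2 are an ETS-IRF match at -247 that overlaps an ISRE core match at -241. In the upstream window of Irf9, which is not printed, a STAT6-type match began at position 2 after the start. No match of the 4 motifs was found in the windows of Irf4 and Irf5, nor in those of Irf3 and Irf7, which says only that these letters are not there. Of all 32851 RefSeq windows, 8.3% held the GAS motif, 6.95% the STAT6-type motif, 3.44% the ISRE core and 2.72% the ETS-IRF motif. Counted by gene, the shares were 9.55%, 8.01%, 3.99% and 3.16% of 27025 genes. ETS-IRF and ISRE letters can overlap, and a match is not evidence of binding.

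Summed counts per library ran from 17001352 to 18918686. The 8 macrophage markers summed to 18914 to 21092 normalized CPM in control and 10894 to 19788 CPM in treated libraries, and against control 1 was higher and 5 were lower with IL-4, 3 and 5 with IL-4+IL-6, 3 and 3 with IL-13, and 4 and 4 with IL-6+IL-13. Of all genes, 60.1% to 72.9% passed in these comparisons. Adgre1, which encodes F4/80, was at 803 to 1460 CPM. Control libraries also held markers of other cells, most of which were lower in treated libraries. The summed level of the 10 granulocyte markers was 495 to 584 CPM in control and 1.64 to 2.89 CPM in the 12 treated libraries, that of 7 B and plasma cell markers 12.5 to 13.9 against 0.824 to 2.73 CPM, that of 7 T and NK cell markers 24.5 to 30.2 against 0 to 1.07 CPM, that of 6 basophil, mast cell and eosinophil markers 18.9 to 22 against 0 to 0.332 CPM, and that of 6 stromal markers 26.5 to 32.1 against 0.257 to 8.3 CPM. The 8 megakaryocyte and erythroid markers summed to 361 to 407 CPM in control and 70.3 to 422 CPM in treated libraries, where they overlapped control in IL-6+IL-13. The treated sums were carried by Pf4, and the other 3 of the 4 tested markers (Ppbp, Itga2b and Gp9) were called lower in every comparison with control. The 10 dendritic cell markers summed to 122 to 130 CPM in control and 215 to 461 CPM in treated libraries, although 6 to 8 of the 9 tested were called lower in each comparison with control. The sum was carried by Bst2, which is also on the list of interferon targets and was called higher in each of these comparisons, as was Cd209a in IL-4+IL-6. Among the others, Siglech was at 5.48 CPM in control and had no count in any treated library, and Flt3 was at 6.37 CPM in control and at most 0.214 CPM in treated libraries. Ly6g, a granulocyte-defining gene, had no count in treated libraries. The part of these cells in each difference from control was not tested. Replicate 2 of IL-4+IL-6 and replicate 1 of IL-13 differed most from the other libraries of their groups. The study describes its replicates as biological and its data in general as coming from independent experiments, but the sources used here do not say which animals or cultures gave the sequenced replicates, so p-values measure only the spread between these samples. Calls of single genes that leaving out a library changed are given where they occur, and such changes are given for some of the list counts.

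Levels were compared between genes in FPKM, which the authors had scaled per gene length. By group means, Irf5 was the most abundant member in every group and Irf4 the least. In control, Irf5 was at 104 ± 2.32 FPKM and Irf8 at 39 ± 0.956 FPKM (SD, n = 3), or 53.7% and 20.1% of the summed FPKM of the 8 genes. Irf1, Irf3 and Irf9 lay at 13.2, 13.2 and 11 FPKM, Irf2 at 7.44 FPKM, Irf7 at 4.66 FPKM and Irf4 at 1.31 FPKM. Control cells had a sum over the 8 of 194 ± 2.86 FPKM, against 197 ± 1.86 FPKM after IL-4 and 201 ± 4.77 FPKM after IL-13. It was lower where IL-6 had been added, at 104 ± 6.42 FPKM in IL-4+IL-6 and 153 ± 13.1 FPKM in IL-6+IL-13. Most of that difference was Irf5, whose level was 114 FPKM in IL-4 and 39.3 FPKM in IL-4+IL-6, and whose share was 57.8% and 37.8%.

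**Figure D1:**
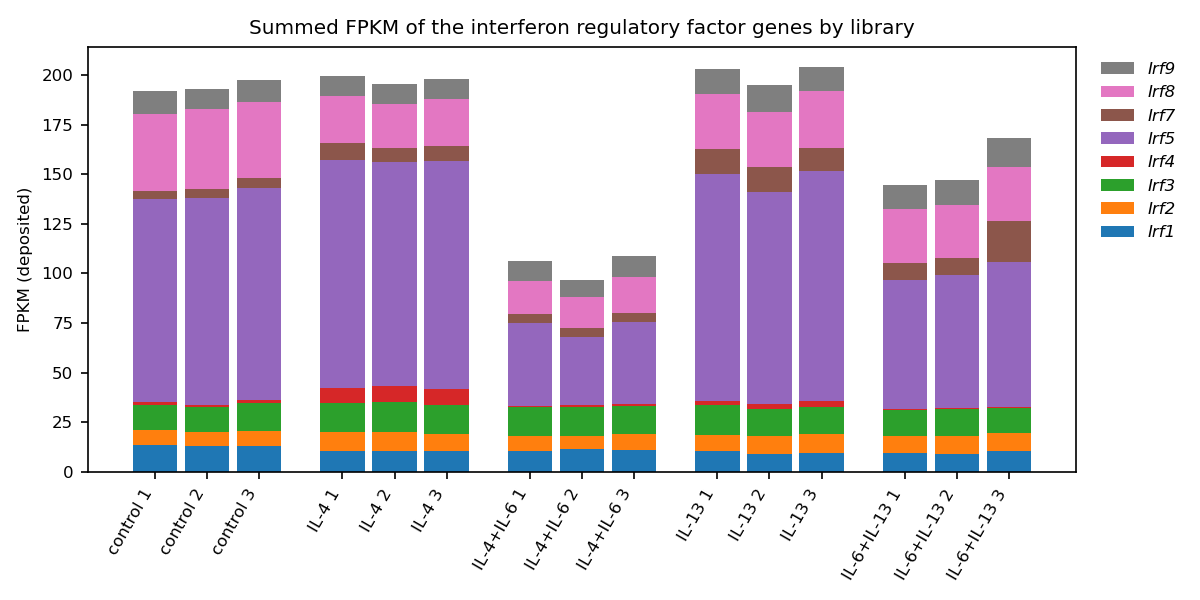
Deposited FPKM of the 8 genes (y axis) stacked for each of the 15 libraries (x axis, group and replicate number). Irf5 makes up the tallest segment in all libraries, and the columns of the IL-4+IL-6 libraries are the shortest, with a mean of 104 FPKM.

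Irf4 (chr13:30749226-30766976, plus strand, GRCm38), the factor tied to alternative activation, had the widest range of the 8 genes. It was 6.51, 5.48 and 6.44 normalized CPM (counts scaled to library size with TMM factors) in control and 36, 37.5 and 38.1 CPM in IL-4. It was 9.47, 12.9 and 13.6 CPM in IL-13. With IL-6 it was 3, 3.53 and 3.22 CPM in IL-4+IL-6, and 2.89, 3.04 and 2.67 CPM in IL-6+IL-13. All IL-4 libraries were above all others, IL-13 libraries came next, and all 6 libraries with IL-6 lay below every control library. IL-4 raised Irf4 6.05-fold over control (log2 fold change 2.60 ± 0.128 SE, edgeR's quasi-likelihood test, Benjamini-Hochberg adjusted p = 1.52e-11), and IL-13 raised it 1.95-fold (0.96 ± 0.132, adjusted p = 7.4e-06). In such bulk RNA, fewer cells that express a gene and less RNA per cell cannot be told apart. The IL-4 group was 3.1-fold above the IL-13 group (log2 1.63 ± 0.119, adjusted p = 6.62e-08).

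The addition of IL-6 took Irf4 below the level of untreated cells. IL-4+IL-6 was 11.4-fold below IL-4 (log2 -3.51 ± 0.139, adjusted p = 2.03e-12), the difference at rank 73 from the lowest among 13938 genes. IL-6+IL-13 was 4.18-fold below IL-13 (log2 -2.06 ± 0.146, adjusted p = 7.65e-09), at rank 157. Against control, Irf4 fell by 0.92 on the log2 scale in IL-4+IL-6 (adjusted p = 3.94e-05) and by 1.10 in IL-6+IL-13 (adjusted p = 8.5e-06). Between the groups with IL-6 the difference was 0.18 ± 0.169 (adjusted p = 0.453), an interval of -0.16 to 0.52 at 2 SE. The low groups rested on 48 to 60 counts per library, and the IL-4 libraries on 673 to 699. The summed granulocyte level was 1.64 to 2.35 CPM in IL-4 and 1.7 to 1.77 CPM in IL-4+IL-6. The dendritic cell list summed to 244 to 263 CPM and 290 to 461 CPM in these groups, with 2 of 9 tested markers called higher with IL-6 (Bst2 and Cd209a) and 1 lower (Kit), and Siglech and Flt3 had no count in either group. The megakaryocyte and erythroid list summed to 70.3 to 74.7 CPM in IL-4 and 175 to 314 CPM in IL-4+IL-6, and to 72.6 to 89.8 CPM in IL-13 and 349 to 422 CPM in IL-6+IL-13, sums carried by Pf4, with 2 of 4 tested markers called higher with IL-6 in each comparison (Pf4 and Ppbp). The dendritic list was 215 to 272 CPM in IL-13 and 233 to 335 CPM in IL-6+IL-13, and the granulocyte list 1.65 to 2.89 and 2.02 to 2.44 CPM. The B and plasma cell list summed to 2.27 to 2.57 CPM in IL-4 and 1.3 to 2 CPM in IL-4+IL-6. Of its 6 tested markers, 0 were called with IL-6 on IL-4 or on IL-13. Of the 8 macrophage markers, 3 were higher and 5 lower with IL-6 on IL-4 (20.7% and 18.7% of all genes). On IL-13, 3 were higher and 2 lower (12.1% and 13.5%). The sums carried by single genes do not give the amount of a cell type. The part of other cells in the result was not tested.

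**Figure D2:**
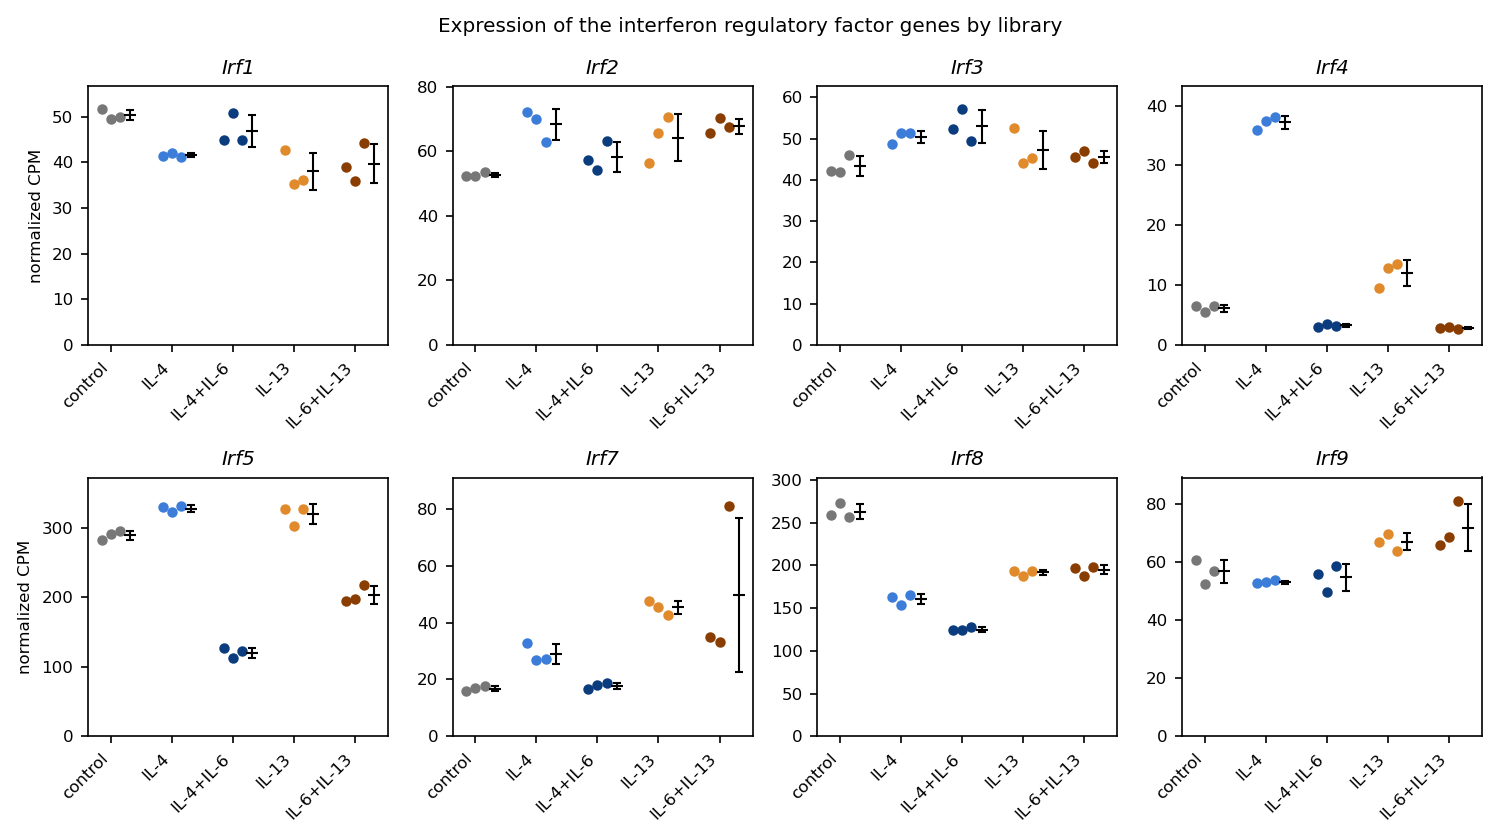
Normalized CPM (y axes, each from 0) of the 8 genes in the 15 libraries, with points for single libraries of each group (x axes) and a bar for the mean ± SD. Irf4 is highest in IL-4 (36 to 38.1 CPM) and lowest with IL-6, Irf5 is lowest in IL-4+IL-6 (112 to 127 CPM), and 1 Irf7 point of IL-6+IL-13 stands apart at 81 CPM.

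Irf8 (chr8:120736358-120756694, plus strand), a lineage factor of monocytes and dendritic cells and a partner of Irf1 at interferon-γ genes, was highest in untreated cells. Control libraries were at 259, 273 and 257 CPM, IL-4 libraries at 163, 154 and 166 CPM, and IL-13 libraries at 194, 188 and 194 CPM. IL-4+IL-6 libraries were at 124, 124 and 128 CPM, and IL-6+IL-13 libraries at 197, 188 and 198 CPM. The IL-4+IL-6 libraries lay below all others and the control libraries above all others, while those of IL-13 and IL-6+IL-13 overlapped. Irf8 fell by 0.71 ± 0.0546 on the log2 scale with IL-4 (adjusted p = 4.76e-09) and by 0.45 ± 0.0543 with IL-13 (adjusted p = 1.61e-06). The IL-4 level was below that with IL-13 by a log2 difference of -0.26 ± 0.0545 (adjusted p = 0.00409). IL-6 lowered Irf8 further on top of IL-4 (log2 -0.36 ± 0.0549, adjusted p = 4.14e-05). On top of IL-13 the difference was 0.02 ± 0.0544 (adjusted p = 0.862, -0.09 to 0.13 at 2 SE). Dendritic cells are rich in Irf8, and most of their markers were lower in treated libraries (above). Their part in the difference from control was not tested.

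Irf4 and Irf8 share DNA-binding partners, and their relative level shifted with treatment. The ratio of Irf4 to Irf8 FPKM was 0.0362, 0.0289 and 0.036 in control and 0.318, 0.35 and 0.331 in IL-4. It was 0.0349, 0.0411 and 0.0362 in IL-4+IL-6, 0.0704, 0.0988 and 0.101 in IL-13, and 0.0211, 0.0232 and 0.0194 in IL-6+IL-13. The ratios of control and IL-4+IL-6 overlapped, although both genes were lower in the latter.

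Irf5 (chr6:29526625-29541871, plus strand), the inflammatory factor of the family, was the most abundant and was lower wherever IL-6 was present. It was 282, 291 and 295 CPM in control, 329, 322 and 331 CPM in IL-4, and 327, 302 and 327 CPM in IL-13. It was 127, 112 and 123 CPM in IL-4+IL-6 and 194, 197 and 218 CPM in IL-6+IL-13. Neither group with IL-6 overlapped any other group. IL-4+IL-6 was 2.72-fold below IL-4 (log2 -1.44 ± 0.0649, adjusted p = 1.13e-11) and 2.4-fold below control (adjusted p = 1.39e-11). IL-6+IL-13 was 1.57-fold below IL-13 (log2 -0.65 ± 0.0636, adjusted p = 4.16e-07) and 1.43-fold below control (adjusted p = 1.92e-06). IL-4+IL-6 was also below IL-6+IL-13 (log2 -0.75 ± 0.0643, adjusted p = 1.06e-07). IL-4 alone raised Irf5 by a log2 difference of 0.18 ± 0.0632 (adjusted p = 0.0202), a call lost without control replicate 1 (adjusted p = 0.0562). The difference with IL-13 was 0.14 ± 0.0632 (adjusted p = 0.0693), and it passed without any 1 of IL-4 replicates 1, 2 and 3, IL-4+IL-6 replicates 1 and 2, IL-13 replicate 2 and IL-6+IL-13 replicates 1 and 3 (0.18 to 0.19, adjusted p between 0.0086 and 0.0371), with no filter on low counts (0.0392) and with only the groups compared (0.0437). Irf5 overlaps Tnpo3 on the opposite strand, and whether reads were counted by strand is not given in the sources used here. Tnpo3 was at 65.9 CPM in IL-4 and 82 CPM in IL-4+IL-6.

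Irf7 (chr7:141262706-141266481, minus strand), which amplifies type I interferon and is itself an interferon target, rose with IL-4 and with IL-13. It was 16, 16.9 and 17.7 CPM in control, 32.9, 26.7 and 27.3 CPM in IL-4, and 16.7, 18 and 18.7 CPM in IL-4+IL-6. It was 47.6, 45.5 and 42.8 CPM in IL-13, and 34.9, 33.1 and 81 CPM in IL-6+IL-13. The libraries of IL-4+IL-6 and control overlapped, and replicate 3 of IL-6+IL-13 lay above every other library. The log2 fold change over control was 0.78 ± 0.245 for IL-4 (adjusted p = 0.00951) and 1.43 ± 0.242 for IL-13 (adjusted p = 7.64e-05). IL-4+IL-6 was below IL-4 (log2 -0.70 ± 0.245, adjusted p = 0.0309). This call was lost without IL-4 replicate 1 (-0.62, adjusted p = 0.1) or without IL-4+IL-6 replicate 1 (-0.68, adjusted p = 0.08). Without IL-6+IL-13 replicate 3, a library of neither group, the difference was -0.72 ± 0.0939 (adjusted p = 1.17e-05). Irf7 overlaps Phrf1 on the opposite strand, which was at 72.8 CPM in IL-4 and 67.3 CPM in IL-4+IL-6.

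The library that stood apart decided several values of Irf7. With all libraries, IL-6+IL-13 differed from IL-13 by a log2 value of 0.13 ± 0.228 (adjusted p = 0.74) and was above control by 1.56 ± 0.242 (adjusted p = 2.59e-05). Without IL-6+IL-13 replicate 3, Irf7 was below IL-13 in IL-6+IL-13 (log2 -0.43 ± 0.1, adjusted p = 0.00547), and its difference from control was 1.04 (adjusted p = 3.06e-07). IL-4 differed from IL-13 by -0.64 ± 0.233 with all libraries (adjusted p = 0.0799) and by -0.64 ± 0.0895 without that replicate (adjusted p = 0.000138). It also passed without IL-6+IL-13 replicate 2 (-0.65, adjusted p = 0.0465), with no filter on low counts (-0.63, adjusted p = 1.38e-07) and with only the groups compared (-0.63, adjusted p = 0.000667). In the same replicate, all 32 tested genes of the list of ISGF3 and IRF7 targets were higher than in the other replicates of its group, against 31.2% of all tested genes. Their mean log2 difference from control was 1.57 in this library and 0.71 and 0.61 in replicates 1 and 2. Isg15, a ubiquitin-like interferon-induced gene, was 17.9, 11.9 and 45.7 CPM in the 3 libraries. Ifnb1, which encodes interferon-β, had 0 counts in all 15 libraries. Irf9 was likewise highest in replicate 3 (80.8 CPM against 65.7 and 68.5 CPM).

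**Figure D3:**
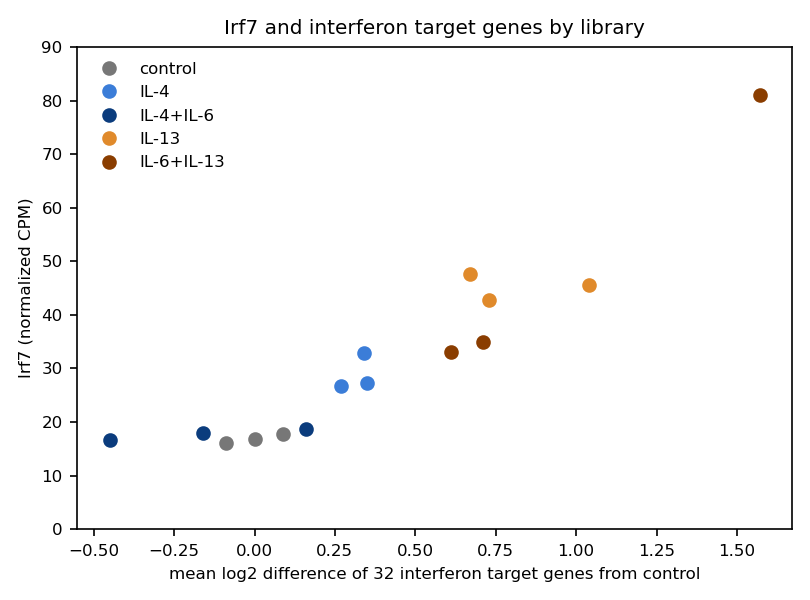
Irf7 in normalized CPM (y axis) against the mean log2 difference from control of 32 tested genes known as targets of ISGF3 and IRF7 (x axis) in each of the 15 libraries, colored by group. Replicate 3 of IL-6+IL-13 lies at 1.57 and 81 CPM, apart from the other libraries of its group at 0.71 and 0.61.

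Irf3 (chr7:44997648-45002848, plus strand), the sensor-driven factor that is present before stimulation, varied little. It was 42.1, 41.9 and 46.1 CPM in control, 48.8, 51.3 and 51.3 CPM in IL-4, and 52.3, 57.3 and 49.5 CPM in IL-4+IL-6. It was 52.6, 44.1 and 45.2 CPM in IL-13, and 45.6, 47 and 44.2 CPM in IL-6+IL-13. All libraries of IL-4 and of IL-4+IL-6 were above all control libraries, and those of the IL-13 groups overlapped with control. Irf3 rose over control by a log2 difference of 0.22 ± 0.0797 in IL-4 (adjusted p = 0.0233) and 0.29 ± 0.0798 in IL-4+IL-6 (adjusted p = 0.00377). The first of these calls was lost without control replicate 1 (adjusted p = 0.0601) or 2 (adjusted p = 0.0662). The difference was 0.12 ± 0.0798 in IL-13 (adjusted p = 0.19) and 0.07 ± 0.08 in IL-6+IL-13 (adjusted p = 0.446). IL-6 moved Irf3 by 0.07 on top of IL-4 (adjusted p = 0.513) and by -0.05 on top of IL-13 (adjusted p = 0.701), values that did not pass the test. Irf3 shares its locus with Bcl2l12 on the opposite strand, which was at 3.84 to 4.99 CPM.

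Irf1 (chr11:53770014-53778374) and Irf2 (chr8:46739732-46847458), both on the plus strand, act in opposite directions on interferon genes, and the calls against control were lower for Irf1 and higher for Irf2. Irf1 was 51.6, 49.4 and 49.9 CPM in control, 41.3, 42 and 41.2 CPM in IL-4 and 42.6, 35.3 and 36.1 CPM in IL-13. With IL-6 it was 44.9, 50.8 and 44.8 CPM in IL-4+IL-6 and 38.9, 35.9 and 44.2 CPM in IL-6+IL-13. Only the IL-4+IL-6 libraries overlapped with those of control. Irf1 fell by 0.28 ± 0.0878 on the log2 scale with IL-4 (adjusted p = 0.0101), by 0.41 ± 0.0881 with IL-13 (adjusted p = 0.000759) and by 0.34 ± 0.088 with IL-6+IL-13 (adjusted p = 0.00259), and the value in IL-4+IL-6 was -0.10 ± 0.0875 (adjusted p = 0.292). The call with IL-4 was lost without IL-4 replicate 1 (adjusted p = 0.0548), 2 (0.0506) or 3 (0.063), or with no filter on low counts (0.0967).

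Irf2 was 52.2, 52.4 and 53.4 CPM in control, 72.2, 69.8 and 62.8 CPM in IL-4 and 56.3, 65.7 and 70.7 CPM in IL-13. It was 57.2, 54 and 63.1 CPM in IL-4+IL-6 and 65.6, 70.1 and 67.4 CPM in IL-6+IL-13. Every treated library was above every control library. Irf2 rose by a log2 difference of 0.37 ± 0.085 with IL-4 (adjusted p = 0.000915), 0.29 ± 0.085 with IL-13 (adjusted p = 0.00797) and 0.36 ± 0.085 with IL-6+IL-13 (adjusted p = 0.00128). In IL-4+IL-6 it was 0.14 ± 0.0854 (adjusted p = 0.147), a value that passed the test without IL-4+IL-6 replicate 2 (0.22, adjusted p = 0.0333). IL-4+IL-6 was below IL-4 by a log2 difference of -0.23 ± 0.0848 (adjusted p = 0.0374), although the libraries of these groups overlapped. That call was lost without IL-4 replicate 1 (adjusted p = 0.115) or 2 (0.0776) and without IL-4+IL-6 replicate 1 (0.0718) or 2 (0.0848), and with only the groups compared (0.0532).

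Irf9 (chr14:55603571-55610030, plus strand), the DNA-binding subunit of ISGF3, was higher with IL-13. It was 60.6, 52.5 and 56.9 CPM in control, 52.6, 52.9 and 53.6 CPM in IL-4 and 55.8, 49.5 and 58.6 CPM in IL-4+IL-6. It was 66.9, 69.7 and 63.8 CPM in IL-13 and 65.7, 68.5 and 80.8 CPM in IL-6+IL-13. All 6 libraries with IL-13 were above all 9 others, which overlapped among their groups. Irf9 rose over control by a log2 difference of 0.24 ± 0.0854 in IL-13 (adjusted p = 0.0249) and 0.34 ± 0.0854 in IL-6+IL-13 (adjusted p = 0.00233). The call in IL-13 was lost without control replicate 2 (adjusted p = 0.102) or 3 (0.0517) or IL-13 replicate 2 (0.0632). IL-4 was below IL-13 (log2 -0.33 ± 0.0856, adjusted p = 0.0154), a call lost without any 1 of the IL-4 libraries (adjusted p = 0.0615, 0.0669 and 0.0577) or IL-13 replicate 2 (0.0708). The locus of Irf9 overlaps Rnf31 on the same strand, which was at 37.7 to 43.8 CPM.

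Counted over the 8 genes, IL-4 changed 7 (5 higher, 2 lower) at an adjusted p under 0.05, where 68.0% of all tested genes passed (32.1% higher, 35.9% lower). IL-13 changed 6 (4 higher, 2 lower), against 60.1% of all genes (29.0% higher, 31.1% lower). IL-4+IL-6 changed 4 against control (1 higher, 3 lower), against 72.9% (35.4% higher, 37.5% lower), and IL-6+IL-13 changed 7 (3 higher, 4 lower), against 64.0% (31.9% higher, 32.1% lower). IL-4+IL-6 against IL-4 gave 5 genes, all lower (Irf2, Irf4, Irf5, Irf7 and Irf8), where 39.4% of all genes passed, 20.7% higher and 18.7% lower. The median log2 difference was -0.30 over the 8 genes and 0.04 over all genes. Leaving out IL-4 replicate 1 or IL-4+IL-6 replicate 1 left 3 of the 5. IL-6+IL-13 against IL-13 gave 2 genes, both lower (Irf4 and Irf5), where 25.6% of all genes passed, 12.1% higher and 13.5% lower, with medians of 0.04 and 0.01. IL-4 against IL-13 gave 3 (Irf4 higher, Irf8 and Irf9 lower), against 12.8% of all genes (5.16% higher, 7.61% lower). Among all genes changed by IL-4+IL-6 against IL-4, 52.6% were higher, and 39% with upper-quartile scaling, under which the same number of the 8 genes passed.

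**Figure D4:**
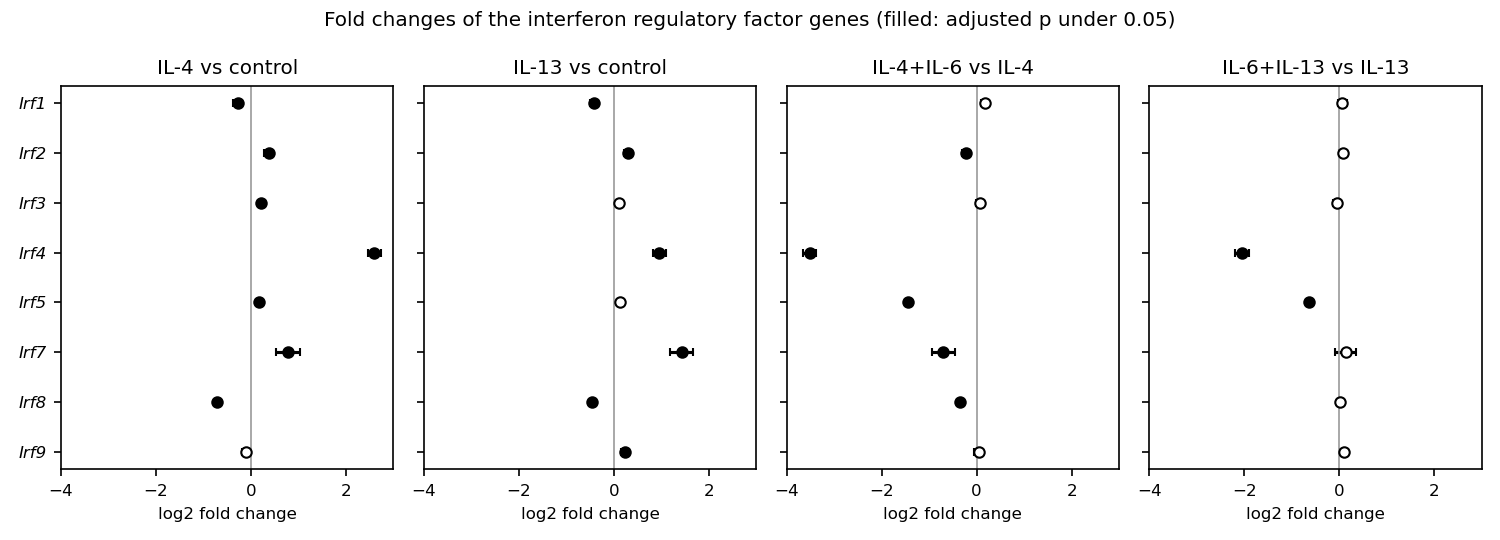
Log2 fold changes (x axes) of the 8 genes (y axis) in 4 comparisons, with bars for 1 SE and filled points for an adjusted p under 0.05. Irf4 has the longest distance from 0 both upward with IL-4 (2.60) and downward with IL-6 on top of IL-4 (-3.51), and Irf5 is lower in both comparisons of IL-6.

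The groups that both received IL-6 were also compared. IL-4+IL-6 differed from IL-6+IL-13 in 6 of the 8 genes (2 higher, 4 lower), against 31.3% of all genes (15.8% higher, 15.5% lower). Irf5, Irf7, Irf8 and Irf9 were lower with IL-4+IL-6, with log2 differences of -0.75, -1.48, -0.63 and -0.39 (adjusted p = 1.06e-07, 0.000158, 1.2e-07 and 0.00203). The Irf7 difference was -0.94 without IL-6+IL-13 replicate 3 (adjusted p = 4.82e-06). The value for Irf2 was -0.22 (adjusted p = 0.0569), and it passed without IL-4+IL-6 replicate 3 (adjusted p = 0.016) or IL-13 replicate 1 (0.0268) or 3 (0.045), with upper-quartile scaling (0.0371) and with no filter on low counts (0.0469). Irf1 and Irf3 were higher by 0.24 (adjusted p = 0.049) and 0.22 (adjusted p = 0.0475), and most of the alternatives ended both calls, among them the omission of any 1 control library (adjusted p between 0.0613 and 0.0733).

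The change that IL-6 made on top of IL-4 was tested against the change it made on top of IL-13. This interaction passed the test for 3 of the 8 genes, all with a lower value on top of IL-4, where 7.64% of all genes passed, 3.22% higher and 4.42% lower. The difference of the log2 changes was -1.45 ± 0.207 for Irf4 (adjusted p = 0.000197), -0.79 ± 0.09 for Irf5 (adjusted p = 2.22e-05) and -0.38 ± 0.0772 for Irf8 (adjusted p = 0.00433). For Irf4, the groups with IL-6 ended at like levels (3.25 ± 0.266 and 2.87 ± 0.185 CPM) from starting levels of 37.2 ± 1.1 CPM in IL-4 and 12 ± 2.21 CPM in IL-13. For Irf5, the starting levels were alike (327 ± 4.86 and 319 ± 14.3 CPM) and the levels with IL-6 differed (120 ± 7.48 and 203 ± 13 CPM). The value for Irf7 was -0.83 ± 0.335 (adjusted p = 0.173), and it was -1.06 without IL-6+IL-13 replicate 2 (adjusted p = 0.0459) and -0.30 without replicate 3 (adjusted p = 0.297). With no filter on low counts it was -0.88 (adjusted p = 5.37e-07). For Irf2 it was -0.31 ± 0.12 (adjusted p = 0.152). Among all genes with a called interaction 42.2% had a higher value on top of IL-4, and 31.7% with upper-quartile scaling.

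The order of the group levels differed between the genes. For Irf4 it ran from IL-4 over IL-13, control and IL-4+IL-6 to IL-6+IL-13, and each neighbor differed from the next except the last pair. For Irf5, IL-4, IL-13 and control were neighbors without a called difference (adjusted p = 0.733 and 0.0693), although IL-4 was above control (adjusted p = 0.0202). They were followed by IL-6+IL-13 and IL-4+IL-6, each lower than the one before. For Irf8, control was followed by IL-6+IL-13 and IL-13, which did not differ (adjusted p = 0.862), then by IL-4 and IL-4+IL-6. For Irf7, IL-6+IL-13, IL-13 and IL-4 were neighbors without a called difference (adjusted p = 0.74 and 0.0799), although IL-4 was below IL-6+IL-13 (log2 -0.78, adjusted p = 0.0169). IL-4+IL-6 was lower than IL-4, and it did not differ from control (adjusted p = 0.784). Without IL-6+IL-13 replicate 3, Irf7 was lower in IL-6+IL-13 than in IL-13 (adjusted p = 0.00547). The step from IL-13 to IL-4 was then called as well (adjusted p = 0.000138). No neighbors differed for Irf1, Irf2 and Irf3. For Irf9 the step from IL-13 to control passed the test (adjusted p = 0.0249).

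The genes with the most similar pattern over the 5 group means were sought for the 4 factors whose means spanned at least 1 on the log2 scale. Likeness was the root mean square difference of centered log2 CPM means. Irf4, which spanned 3.65, was most like Slc9a3r2 (0.32), Hr (0.37) and Map1a (0.38). Irf5 (span 1.44) was most like 4930471E19Rik, M1ap and Hnmt (0.07 each), and Irf8 (span 1.07) most like Gm45854 (0.03), Xiap and Arhgef10l (0.04 each). Irf7 (span 1.43) was most like Ifitm3 (0.08), an antiviral membrane protein gene induced by interferon, Plcd3 (0.11) and 6430562O15Rik (0.12). Irf4 had the largest distance to its nearest gene of the 4.

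Genes that act above the factors were counted next. Of 22 sensors, adaptors and kinases upstream of Irf3, Irf5 and Irf7, 15 fell and 1 rose with IL-4, and 11 fell and 1 rose with IL-13. Of all genes, 35.9% fell and 32.1% rose with IL-4, and 31.1% and 29.0% with IL-13. The markers of other cells, above, were lower in the same comparisons, and their part was not tested. Ikbke, a kinase that phosphorylates Irf3 and Irf7, was 255 ± 15.1 CPM in control, 55.7 ± 3.7 CPM in IL-4 and 72.4 ± 3.19 CPM in IL-13 (adjusted p = 6.47e-13 and 8.6e-12 against control). Tbk1, its relative, was 114 ± 1.27 CPM in control and 84.7 ± 1.92 CPM in IL-4 (adjusted p = 7.22e-06). With IL-6, 8 of the 22 rose and 6 fell on top of IL-4 (20.7% and 18.7% of all genes), and 8 rose and 2 fell on top of IL-13 (12.1% and 13.5%). Without IL-4+IL-6 replicate 2, 7 rose and 5 fell on IL-4, and 8 rose and 5 fell on IL-13. Without IL-6+IL-13 replicate 3, 8 rose and 6 fell on IL-4, and 6 rose and 2 fell on IL-13. Of 9 interferon receptor and kinase genes, 4 fell and 1 rose with IL-4. Stat2, a subunit of ISGF3, was 80.4 ± 4.46 CPM in control and 126 ± 21.7 CPM in IL-6+IL-13 (adjusted p = 0.000298).

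Genes known to be driven by ISGF3 and Irf7 were counted over 32 tested of 34 listed. With IL-13, 20 rose and 1 fell, with a median log2 difference of 0.81 (all genes, -0.02, of which 29.0% rose and 31.1% fell). With IL-4, 14 rose and 5 fell (median 0.26), against 32.1% and 35.9% of all genes. With IL-6+IL-13, 21 rose and 0 fell against control (31.9% and 32.1% of all genes), or 17 and 0 without IL-6+IL-13 replicate 3. IL-4+IL-6 against IL-4 gave 3 higher and 9 lower (20.7% and 18.7% of all genes), or 0 higher and 8 lower without IL-4+IL-6 replicate 2. IL-4+IL-6 against IL-6+IL-13 gave 1 higher and 27 lower (15.8% and 15.5% of all genes), or 2 and 21 without IL-6+IL-13 replicate 3. IL-6+IL-13 against IL-13 gave 2 higher and 0 lower (12.1% and 13.5% of all genes), but 1 higher and 6 lower without IL-6+IL-13 replicate 3. Oasl2, an interferon-induced OAS-like gene, was 37 ± 2.23 CPM in control, 79 ± 8.2 CPM in IL-4, 34.2 ± 4.34 CPM in IL-4+IL-6 and 111 ± 9.15 CPM in IL-13, and it fell with IL-6 on top of IL-4 (adjusted p = 4.77e-05). Ifit3, another antiviral interferon target, fell there too, from 4.43 ± 0.406 to 1.77 ± 0.501 CPM (adjusted p = 0.0145), a call lost without IL-4+IL-6 replicate 1 (adjusted p = 0.0626). Rsad2, which encodes viperin, was 9.12 ± 1.48 and 8.03 ± 5.27 CPM in these groups (adjusted p = 0.763). Usp18, which removes Isg15 from proteins, was at 19.3 ± 2.08 CPM in IL-4 and 27.7 ± 4.78 CPM in IL-4+IL-6 (log2 0.52, adjusted p = 0.0461). That call was lost without any 1 of 11 libraries, among them every IL-4 library and IL-4+IL-6 replicate 2 (0.39, adjusted p = 0.146), with adjusted p up to 0.184.

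Among 25 tested genes of 28 listed as driven by Irf1 and Irf8, 14 fell and 6 rose with IL-4 (35.9% and 32.1% of all genes), and 10 fell and 2 rose with IL-6 on top of IL-4 (18.7% and 20.7%). Ciita, the master regulator of MHC class II genes, was 13.3 ± 0.542 CPM in control, 2.92 ± 0.367 CPM in IL-4 and 0.404 ± 0.0606 CPM in IL-4+IL-6 (adjusted p = 8.83e-08 for IL-4 and 1.96e-06 for IL-6 on top). Dendritic and B cells also express it, most of their tested markers were lower in treated libraries, and their part was not tested. Gbp2, a guanylate-binding protein gene, fell with IL-4 from 11.3 ± 1.8 to 6.31 ± 2.34 CPM (adjusted p = 0.0232), a call lost without IL-4 replicate 2 (adjusted p = 0.148) or 3 (0.0567) or control replicate 2 (0.0647) or 3 (0.0738). Tap1 and Psmb9, which serve antigen processing, were among those that rose with IL-4 (72.8 ± 2.9 against 51.4 ± 1.25 CPM, and 45.8 ± 2.98 against 28.5 ± 3.25 CPM) and fell with IL-6 on top of it (adjusted p = 2.61e-05 and 3.78e-05). Of the 5 tested cytokine genes of 8 known as Irf5 targets, 1 fell with IL-6 on top of IL-4 and 1 on top of IL-13, where 18.7% and 13.5% of all genes fell. In both it was Tnf, at 15.1 ± 2.7 CPM in IL-4 and 9.53 ± 1.69 CPM in IL-4+IL-6 (adjusted p = 0.00377) and 31 ± 3.57 against 22.3 ± 3.75 CPM on IL-13 (adjusted p = 0.0247). The call on IL-13 was lost without IL-13 replicate 1 (adjusted p = 0.0888) or IL-6+IL-13 replicate 1 (0.0508) or 2 (0.126). Il12b had at most 2 counts in any treated library.

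Genes known to depend on Irf4 in M2 macrophages mostly rose when IL-6 was added, where Irf4 fell. Of 7 tested genes of 8 listed, 6 rose and 1 fell with IL-4 over control (32.1% and 35.9% of all genes). With IL-6, 5 rose and 2 fell both on top of IL-4 (20.7% and 18.7% of all genes) and on top of IL-13 (12.1% and 13.5%). Mrc1 (the mannose receptor) was 995 ± 5.69 CPM in IL-4 and 8713 ± 792 CPM in IL-4+IL-6 (adjusted p = 3.37e-13). Retnla, a secreted M2 marker, was 728 ± 52.6 CPM in IL-4 and 399 ± 120 CPM in IL-4+IL-6 (adjusted p = 0.000182). Kdm6b, a histone demethylase placed above Irf4 in M2 activation, was 10.1 ± 0.501 CPM in control and 4.37 ± 0.784 CPM in IL-4, and it differed from IL-4 by a log2 value of 0.22 in IL-4+IL-6 (adjusted p = 0.341).

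Of 19 DNA-binding partners and co-factors, 3 rose and 6 fell with IL-6 on top of IL-4, where 20.7% of all genes rose and 18.7% fell. Batf, an AP-1 protein that pairs with Irf4 and Irf8, was 3.74 ± 0.235 CPM in IL-4 and 21 ± 4.65 CPM in IL-4+IL-6 (log2 2.49 ± 0.151, adjusted p = 5.42e-10). Its relative Batf3 was 18.6 ± 0.852 CPM in IL-4 and 10.1 ± 1.9 CPM in IL-4+IL-6 (log2 -0.89 ± 0.12, adjusted p = 1.15e-05), and 3.59 ± 0.00592 CPM in control. Spi1, which encodes PU.1 and recruits Irf4 and Irf8 to ETS-IRF sites, was 454 ± 8.14 CPM in IL-4 and 468 ± 64.6 CPM in IL-4+IL-6 (log2 0.04, adjusted p = 0.771). Ikzf1, a zinc finger partner of Irf4 and Irf8, fell from 85.7 ± 1.44 to 72.2 ± 7.8 CPM (adjusted p = 0.0295), a call lost without IL-4 replicate 1 (0.0537) or 2 (0.0636) or IL-4+IL-6 replicate 2 (0.0842). Irf2bp2, a co-repressor that binds Irf2, fell with IL-6 from 110 ± 5.08 to 62 ± 3.45 CPM on IL-4 (adjusted p = 1.39e-07) and from 107 ± 10.9 to 60.5 ± 2.68 CPM on IL-13 (adjusted p = 2.86e-07).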

How the data were processed

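RNA of mouse BMDMs was sequenced in 15 libraries, 3 in each of 5 groups taken from the sample labels. The authors deposited a matrix of raw read counts per gene and, for each library, a table of FPKM values scaled to gene length and depth. The submitters' processing notes name CASAVA, Bowtie2 2.2.3, HISAT2 2.1.0, TopHat2, DESeq2 and build GRCm38 without their roles, and the counting tool and its strand setting are not given in the sources used here.

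Symbols and coordinates came from GENCODE annotation of GRCm38. Counts were filtered with filterByExpr (minimum count 10), scaled by TMM and tested with edgeR 4.0.16 (quasi-likelihood F-test, R 4.3.3, limma 3.58.1) in 1 fit of all groups, with Benjamini-Hochberg adjustment over 13938 genes and a threshold of 0.05. Every adjusted p in the text comes from this tool and test unless another setting is named. The SE was the log2 fold change divided by the square root of F. Normalized CPM used the deposited library totals multiplied by TMM factors. FPKM was used for levels between genes, with no test. The test was checked on simulated counts.

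All 8 members were named, with listed pathway genes and, for members spanning at least 1 in log2 CPM (prior count 2), the 3 genes of most similar pattern. The members and lists were chosen with earlier results of these data known. Alternatives were DESeq2 1.42.0, upper-quartile scaling, no count filter and a stricter count filter (CPM of at least 1 in 3 libraries). The others were only the groups compared, a replicate block and leaving out each library. The planned comparison of protein sequences was not run. Some items fixed for naming are not reported here. Counting error and replicate spread limit precision, the lowest member level resting on 48 counts.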

Additional observations from a re-analysis of the deposited data

Results flagged for a closer look

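The effect of IL-6 differed between macrophages given IL-4 and those given IL-13 for 3 members, by edgeR's interaction test. For Irf4 the log2 change on top of IL-4 minus that on top of IL-13 was -1.45 (adjusted p = 0.000197), for Irf5 it was -0.79 (adjusted p = 2.22e-05) and for Irf8 it was -0.38 (adjusted p = 0.00433).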

How the results depend on the processing

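Of 43 called member differences, 34 kept direction and call under every alternative, as did 13 of 29 that were not called. Calls that single libraries ended or brought about stand beside their results in the report. Signs turned for small differences, none of which was called before. With upper-quartile scaling, Irf3 and Irf9 were at -0.02 and -0.05 in IL-4+IL-6 against IL-4, and Irf8 at -0.02 in IL-6+IL-13 against IL-13. Leaving out 1 library in turn gave ranges across 0. These were -0.11 to 0.04 for Irf9 in IL-4+IL-6 against control, -0.00 to 0.10 for Irf3 and -0.03 to 0.09 for Irf9 in IL-4+IL-6 against IL-4, and -0.00 to 0.06 for Irf5 in IL-4 against IL-13. In IL-6+IL-13 against IL-13 they were -0.03 to 0.14 for Irf1, -0.02 to 0.14 for Irf2, -0.11 to 0.02 for Irf3, -0.43 to 0.35 for Irf7, -0.01 to 0.04 for Irf8 and -0.00 to 0.15 for Irf9, and for the interaction of Irf9 -0.13 to 0.03. Members called in IL-4+IL-6 against IL-4 numbered 3 to 5. Genes called in IL-4 against IL-13 numbered 1088 to 2915 (1779 with all libraries). With only the groups compared, 2900 genes passed in IL-4+IL-6 against IL-6+IL-13 (4368 in the fit of all groups). The causes of these changes were not tested.

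Deviations from the group means were little shared by same-numbered libraries: 3 of 30 correlations were over 0.1 (-0.276 to 0.163). This does not tell whether such libraries came from the same animal or culture. With the replicate block, 4 members in place of 6 passed in IL-4+IL-6 against IL-6+IL-13 (Irf1 adjusted p = 0.0699, Irf3 0.0711), and the number of members called was equal in the other comparisons. Low counts limit Irf4 in the groups with IL-6.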
